A study of Mus musculus with 11 samples.

Results

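The insulin-like growth factor (IGF) axis was examined in RNA-seq data of mouse mammary epithelial cells through 10 genes set by name: the ligands *Igf1* and *Igf2*, the receptor *Igf1r*, the adaptor *Irs1* and the binding proteins *Igfbp2*, *Igfbp3*, *Igfbp4*, *Igfbp5*, *Igfbp6* and *Igfbp7*. Each matched 1 of the 27179 Entrez genes in the count tables. All 10 exceeded 0.5 CPM (counts scaled to a common library total) in 3 or more libraries and so were among the 15422 genes tested.

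The 11 libraries comprised 3 each of MaSC/basal (CD24+CD29hi, enriched for mammary stem cells), LP (CD24+CD29loCD61+, enriched for luminal progenitors) and ML (CD24+CD29loCD61-, enriched for mature luminal cells) populations, all sorted from mammary glands of wild type virgin FVB/N females aged 8 weeks in the labels. A further library came from mammosphere cells, which are MaSC/basal cells of the same strain and the same labelled age of 8 weeks. These cells were kept for 1 week in non-adherent culture in a medium that contained insulin, EGF and bFGF. The last came from Comma Dβ (labelled CommaD-βGeo), an established epithelial line derived from the mammary gland of a Balb/c mouse in mid-pregnancy. The 3 library batches in the labels were made up as follows: the mammosphere library and replicate 1 of each population formed batch 1, MaSC/basal replicates 2 and 3 with LP replicate 2 and ML replicate 2 formed batch 2, and Comma Dβ with the third replicates of LP and ML formed batch 3. The labels name the TruSeq RNA kit for batch 1 and its version v2 for the other batches, whereas the study's methods name v2 for all. The study's methods describe the sorted samples of a population as independent. No number of mice behind a library is given in the sources used here. The populations are enriched rather than pure, mammosphere and Comma Dβ values rest on 1 library each, and in bulk samples fewer cells of a type and less RNA per cell cannot be told apart.

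IGF1 and IGF2 are secreted peptides that bind the receptor tyrosine kinase IGF1R, which phosphorylates the adaptor IRS1 and so feeds the PI3K-AKT-mTOR and MAPK pathways of growth and survival. In the mammary gland IGF1 is known as a local mediator of growth hormone in duct growth. The secreted binding proteins carry the ligands, limit or prolong their access to the receptor and are cut by proteases such as pappalysin. IGFBP5 is best known in this tissue from involution after lactation, and IGFBP7 binds IGFs less tightly than the others.

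Promoter sequence is shown for 3 binding proteins whose transcripts behaved differently below: *Igfbp2* and *Igfbp7*, which were higher in MaSC/basal cells than in both luminal populations, and *Igfbp5*, which was abundant in all 3. The windows end at the RefSeq start of the gene (GRCm38.p6) and run 5′ to 3′ on the gene's strand, with CG dinucleotides in capitals. The *Igfbp2* window is chr1:72824230-72824479 (plus strand) with 14 CG dinucleotides, the *Igfbp7* window chr5:77408046-77408295 (minus strand) with 26, and the *Igfbp5* window chr1:72874885-72875115 (minus strand) with 10. The last 19 bases before the *Igfbp5* start lie in an exon of GENCODE M21 and were left out.
Igfbp2: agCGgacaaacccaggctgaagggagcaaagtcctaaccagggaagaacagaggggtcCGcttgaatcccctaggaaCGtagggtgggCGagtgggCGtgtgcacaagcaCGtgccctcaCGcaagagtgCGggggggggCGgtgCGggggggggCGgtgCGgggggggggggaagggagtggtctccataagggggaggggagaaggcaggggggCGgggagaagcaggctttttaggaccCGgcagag
Igfbp7: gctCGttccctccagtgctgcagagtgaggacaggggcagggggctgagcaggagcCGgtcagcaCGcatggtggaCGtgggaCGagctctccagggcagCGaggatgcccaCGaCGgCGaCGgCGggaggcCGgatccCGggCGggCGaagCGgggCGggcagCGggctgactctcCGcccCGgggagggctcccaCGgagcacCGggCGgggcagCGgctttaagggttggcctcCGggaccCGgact
Igfbp5: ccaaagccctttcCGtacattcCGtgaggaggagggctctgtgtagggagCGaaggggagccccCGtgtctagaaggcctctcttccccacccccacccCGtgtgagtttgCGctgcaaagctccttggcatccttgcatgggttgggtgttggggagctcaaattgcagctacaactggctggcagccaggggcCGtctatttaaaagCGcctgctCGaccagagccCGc

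The median of 32817 mouse promoter windows of 250 bases held 6 CG dinucleotides. Windows for all 10 IGF genes were found (14 windows, since *Igf2* has 4 start sites and *Igfbp2* has 2), and the counts per gene cannot separate start sites. Among single-window genes the CG count was highest for *Igf1r* (42) and lowest for *Igf1* (5). The windows of *Igf1*, *Igfbp3* and *Igfbp4*, 3 of those of *Igf2* and the second of *Igfbp2* lie inside the gene spans given below, so that positions there count back from a start site within the gene. The letters GGGCGG (GC box, either strand) were present in 32.7% of all windows. They occurred 3 times in the printed *Igfbp2* window (-113, -98 and -37 from the start) and 4 times in that of *Igfbp7* (-110, -96, -74 and -44), and also in the windows of *Igf1r* and *Irs1* and 2 of those of *Igf2*. None occurred in the second window of *Igfbp2* or in those of *Igfbp3*, *Igfbp4*, *Igfbp5*, *Igfbp6* and *Igf1*, so this motif did not divide the basal binding proteins from the others. TATAAA, found in 12.4% of all windows, lay at -28 from the start site of *Igfbp4* and at -148 from that of *Igfbp6*. GGAATG (TEAD motif, 12.6% of windows) lay at -233 for *Igfbp5* and -201 for *Irs1* and in 3 windows of *Igf2*. TGANTCA (AP-1 motif, 6.75% of windows) lay at -37 for *Igf1* and -39 for the second start site of *Igfbp2*. None of the 4 motifs contains another, and a match is a description of the sequence only.

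Between 19958838 (LP replicate 3) and 75795034 (ML replicate 2) reads per library were counted on genes, and values are given as CPM after TMM normalization. At this depth 3 reads corresponded to 0.0399 to 0.160 CPM. The sorted populations carried their labelled markers: the sum of 5 basal markers was 15222 to 20988 CPM in MaSC/basal libraries and 53.8 to 349 CPM in luminal libraries, that of 4 luminal progenitor markers was 1223 to 1613 CPM in LP and 295 to 687 CPM in ML libraries, and that of 5 mature luminal markers was 676 to 1652 CPM in LP and 3972 to 6346 CPM in ML libraries. The 5 luminal markers summed to 1401 to 1691 CPM in MaSC/basal libraries, against 12758 to 16391 CPM in luminal libraries. In the Comma Dβ library the 5 basal markers summed to 1507 CPM, below all MaSC/basal and above all luminal libraries. The 5 luminal markers summed there to 211 CPM against 3664 CPM for 6 fibroblast-list genes, of which collagen genes form a part. MaSC/basal replicate 1 is labelled wild type, but the letters p53 stand in its submitted name. Without this library no call of an IGF axis gene was lost or gained.

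The clearest pattern of the axis was a basal set of binding proteins. *Igfbp2*, *Igfbp3*, *Igfbp4* and *Igfbp7* were higher in MaSC/basal cells than in both luminal populations, by 7.82-fold (*Igfbp7* over LP) to 303-fold (*Igfbp2* over ML). *Igfbp5* was the most abundant binding protein transcript of all 3 sorted populations. The receptor *Igf1r* was highest in MaSC/basal and lowest in ML cells, the adaptor *Irs1* was higher in LP than in MaSC/basal cells, and the ligand transcripts were at most at 5.88 CPM in the sorted libraries.

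By edgeR's quasi-likelihood test at a false discovery rate (FDR) under 0.05, 5 of the 10 genes were higher in MaSC/basal than in LP cells, where 29.4% of all genes tested were, and 1 was higher in LP cells, against 28.0% of all genes. Relative to ML cells, 7 of 10 were higher in MaSC/basal cells (28.9% of all genes) and 0 were higher in ML cells (29.7% of all genes). Between the luminal populations, 5 were higher in LP cells (14.3% of all genes) and 0 in ML cells (17.5% of all genes). With the stricter cutoff of FDR under 0.001 and an absolute log2 fold change over 2, 4 of the genes separated MaSC/basal from LP cells (16.8% of all genes), 5 separated MaSC/basal from ML cells (18.3%) and 0 separated LP from ML cells (0.869%). The median log2 fold change of the 10 genes was 1.60 for MaSC/basal over LP, 1.68 for MaSC/basal over ML and 1.01 for LP over ML, whereas the median over all genes tested was -0.01 in each comparison. The comparisons share libraries and are not independent of each other. The 10 genes were chosen with earlier results of these data known, so their shares and medians beside those of all genes are a description.

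**Figure D1:**
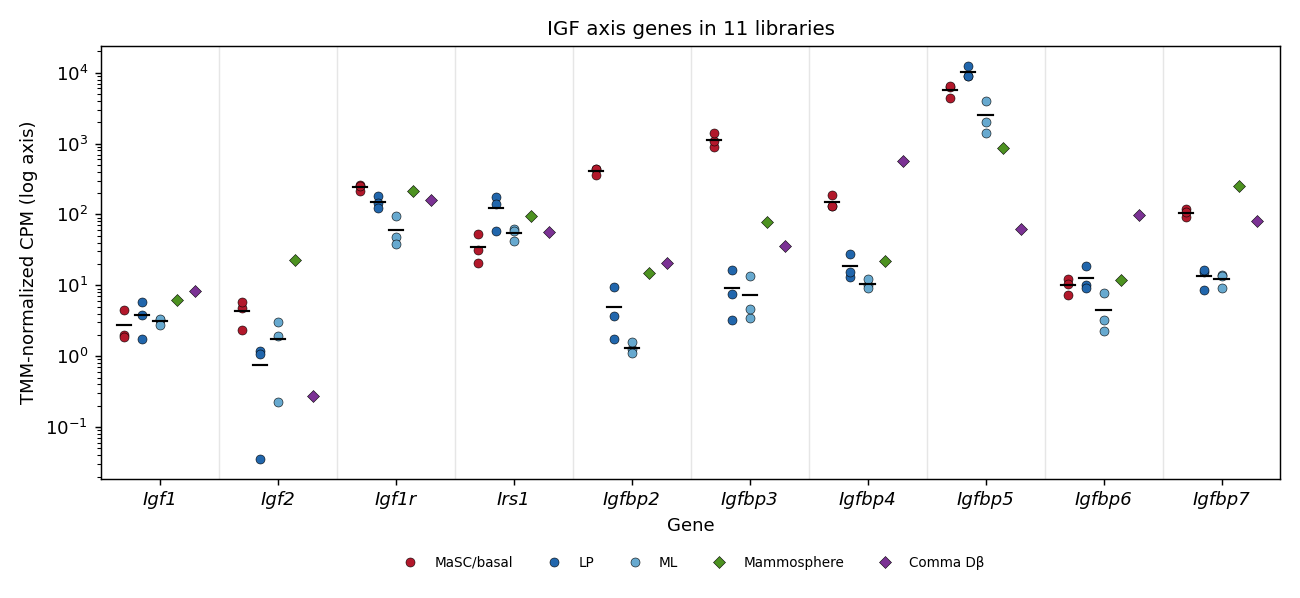
TMM-normalized CPM (log axis) of the 10 IGF axis genes in each of the 11 libraries, with a bar at the mean of the 3 libraries of a sorted population and diamonds for the single mammosphere and Comma Dβ libraries. *Igfbp2* and *Igfbp3* stand at 358 to 1405 CPM in MaSC/basal cells and at 1.09 to 16.7 CPM in luminal cells, and *Igfbp5* is above 1427 CPM in all 9 sorted libraries.

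**Figure D2:**
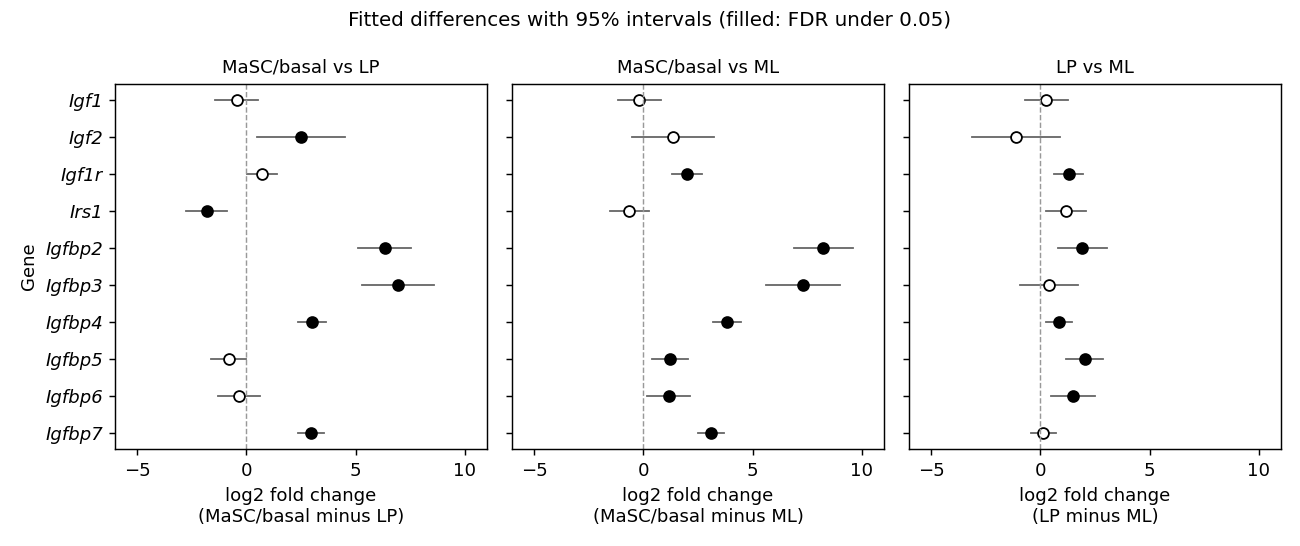
Fitted log2 fold changes (points) with 95% intervals (lines) of the 10 genes in the 3 comparisons of sorted populations. Filled points passed FDR under 0.05, namely 6 genes for MaSC/basal against LP, 7 for MaSC/basal against ML and 5 for LP against ML.

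Ligands. *Igf1* (chromosome 10, 87858265 to 87937047, GRCm38) encodes the ligand that mediates much of growth hormone action. It was measured at 2.00, 1.89 and 4.43 CPM in MaSC/basal replicates 1 to 3, at 1.76, 5.73 and 3.79 CPM in LP replicates and at 3.28, 3.39 and 2.73 CPM in ML replicates. These ranges overlapped in every pair of populations. The log2 fold change was -0.45 for MaSC/basal over LP (95% interval -1.43 to 0.53, adjusted p = 0.404), -0.18 for MaSC/basal over ML (-1.16 to 0.80, adjusted p = 0.743) and 0.27 for LP over ML (-0.71 to 1.25, adjusted p = 0.675). The sorted library with the most *Igf1*, LP replicate 2, was also the one with the largest sum of the 6 fibroblast markers (1376 CPM, against 285 to 929 CPM in the other sorted libraries, with all 6 detected in each population). The part of fibroblast RNA in the level of *Igf1* was not tested. Reads of a partly overlapping antisense gene cannot be told apart, since the sources used here do not say that counting used strand.

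*Igf2* (chromosome 7, 142650768 to 142666816) encodes the second ligand and is imprinted. It was measured at 2.36, 4.82 and 5.88 CPM across MaSC/basal, 0.0353, 1.18 and 1.07 CPM across LP and 0.226, 1.90 and 3.05 CPM across ML libraries. The lowest value is 1 read in LP replicate 1, and the ML replicate 1 value is 8 reads. MaSC/basal and LP libraries did not overlap, whereas MaSC/basal and ML libraries did. The gene was higher in MaSC/basal than in LP cells by 2.49 on the log2 scale (SE 0.90, adjusted p = 0.0367). That call was lost when MaSC/basal replicate 2 or 3 or LP replicate 1 or 3 was left out (adjusted p = 0.0633 to 0.0916). Against ML cells the difference was 1.36 (SE 0.84, adjusted p = 0.188), and with library batch as a block it was 1.98 (adjusted p = 0.0105). Replicate 1, from batch 1, was the lowest library of each population.

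Receptor and adaptor. *Igf1r* (chromosome 7, 67952257 to 68233668) was detected at 217, 264 and 252 CPM across MaSC/basal, 180.4, 144 and 121 CPM across LP and 48.8, 95.2 and 37.7 CPM across ML libraries. The populations did not overlap, and the order of the means was MaSC/basal (244 ± 24.8 CPM, SD, n = 3), LP (149 ± 29.8 CPM) and ML (60.6 ± 30.5 CPM). *Igf1r* was higher in MaSC/basal than in ML cells, the log2 difference being 2.01 (SE 0.31, adjusted p = 0.000313), and LP also exceeded ML (1.29, SE 0.31, adjusted p = 0.0111). MaSC/basal and LP cells are neighbours in this order, and their log2 difference of 0.72 (SE 0.30, 95% interval 0.05 to 1.39) did not pass the test (adjusted p = 0.0647). It passed with library totals in place of TMM (0.87, adjusted p = 0.0233), a scaling that moved the median of all genes tested in this comparison to 0.14. It also passed with upper quartile factors (adjusted p = 0.0482) and without ML replicate 2 or 3 (adjusted p = 0.00688 and 0.0308). The Wald test of DESeq2 called it (adjusted p = 0.0411), with more false calls than edgeR in a simulation with far fewer changed genes. The other 13 of 18 alternative fits did not call it. With library batch as a block the difference was 0.44 (adjusted p = 0.163), and without LP replicate 3 it was 0.58 (adjusted p = 0.188). The difference had the same sign within batches 1 and 2, from 0.26 to 0.84.

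*Irs1* (chromosome 1, 82233105 to 82291439), the adaptor that couples the receptor to PI3K, ran in another order. It was at 31.4, 53.1 and 20.8 CPM across MaSC/basal, 176, 59.1 and 138 CPM across LP and 62.9, 42.3 and 59.1 CPM across ML libraries. All LP libraries lay above all MaSC/basal libraries, while LP replicate 2 lay within the range of ML. *Irs1* was lower in MaSC/basal than in LP cells (log2 fold change -1.83, SE 0.42, adjusted p = 0.00387). MaSC/basal and ML cells were not separated (-0.64, SE 0.41, adjusted p = 0.202). For LP over ML the log2 fold change was 1.19 (SE 0.41, adjusted p = 0.0514), just short of the threshold, and 8 of 18 alternative fits called it (adjusted p from 0.0121 to 0.163 over all 18). Within each of the 3 batches LP exceeded ML, by 0.48 to 1.48 on the log2 scale.

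Basal binding proteins. *Igfbp2* (chromosome 1, 72824480 to 72852474) was at 442, 431 and 358 CPM across MaSC/basal, 1.73, 9.45 and 3.68 CPM across LP and 1.27, 1.58 and 1.09 CPM across ML libraries. The lowest MaSC/basal library was thus far above the highest luminal library. The log2 fold change was 6.33 over LP (SE 0.54, adjusted p = 6.30e-06) and 8.24 over ML (SE 0.60, adjusted p = 1.94e-06). *Igfbp2* ranked 96 of 15422 genes by fold change in the first comparison and 32 in the second.

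*Igfbp2* also exceeded its ML level in LP cells (1.92, SE 0.50, adjusted p = 0.0169). LP replicate 2 carried much of this: without it the log2 fold change was 0.99 (adjusted p = 0.0516), and that of MaSC/basal over LP was 7.26. The call was likewise lost without ML replicate 1 (adjusted p = 0.0557) and with limma voom (adjusted p = 0.0502).

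*Igfbp3* (chromosome 11, 7206086 to 7215498), the main carrier of IGFs in serum, reached 892, 1103 and 1405 CPM in MaSC/basal cells. It was at 3.28, 16.7 and 7.63 CPM in LP and 3.48, 4.68 and 13.6 CPM in ML libraries. Again the MaSC/basal libraries did not overlap with any luminal library, whereas LP and ML overlapped. The log2 fold change was 6.93 over LP (SE 0.74, adjusted p = 2.77e-05) and 7.32 over ML (SE 0.75, adjusted p = 1.91e-05). The luminal populations were not separated (0.39 for LP over ML, 95% interval -0.94 to 1.71, adjusted p = 0.652). Leaving out LP replicate 2 raised the first value to 7.70 and turned the LP over ML value to -0.37, and leaving out ML replicate 3 raised the second value to 8.11.

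*Igfbp4* (chromosome 11, 99040005 to 99052655), a binding protein cut by pappalysin, was at 186, 132 and 133 CPM across MaSC/basal, 13.3, 27.3 and 15.4 CPM across LP and 10.2, 9.27 and 12.2 CPM across ML libraries. The 3 populations did not overlap. The log2 fold change was 3.00 over LP (SE 0.28, adjusted p = 1.08e-05) and 3.84 over ML (SE 0.29, adjusted p = 2.52e-06). The smaller difference between LP and ML cells (0.84, SE 0.27, adjusted p = 0.0378) was lost with library batch as a block (0.83, adjusted p = 0.0600), with library totals (0.66, adjusted p = 0.0883), and without LP replicate 2 or any 1 of the ML replicates (adjusted p = 0.0530 to 0.122).

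*Igfbp7* (chromosome 5, 77349240 to 77408045) was at 90.7, 119 and 107 CPM across MaSC/basal, 8.50, 15.6 and 16.5 CPM across LP and 9.13, 14.2 and 13.5 CPM across ML libraries. MaSC/basal libraries stood apart from both luminal populations, which overlapped. The log2 fold change was 2.97 over LP (SE 0.27, adjusted p = 9.22e-06) and 3.11 over ML (SE 0.27, adjusted p = 6.27e-06), against 0.14 for LP over ML (95% interval -0.43 to 0.71, adjusted p = 0.704). The sign of the last value depended on the scaling and on single libraries. The 3′ ends of *Igfbp7* and its neighbour *Polr2b* share 89 bases, so a few reads there could belong to either gene.

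In the 6 luminal libraries the residual levels of *Igfbp2* and *Igfbp3*, as a share of the MaSC/basal mean, lay below those of *Igfbp4* and *Igfbp7*. Relative to the MaSC/basal mean, *Igfbp2* stood at 0.266% to 2.30%, *Igfbp3* at 0.289% to 1.47%, *Igfbp4* at 6.17% to 18.2% and *Igfbp7* at 8.03% to 15.6%. The basal markers *Acta2* and *Myh11* stood at 0.196% to 1.56% and 0.201% to 1.09%. *Krt5* and *Krt14* were at 0.207% to 0.723% and 0.357% to 0.604% in 5 libraries and at 4.58% and 2.41% in ML replicate 3. Of the 5 basal markers, *Trp63* was left out of this comparison. LP replicate 2 was the luminal library with the highest share for *Igfbp2*, *Igfbp3*, *Igfbp4*, *Acta2* and *Myh11*. The part of admixed MaSC/basal RNA in these residual levels was not tested.

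**Figure D3:**
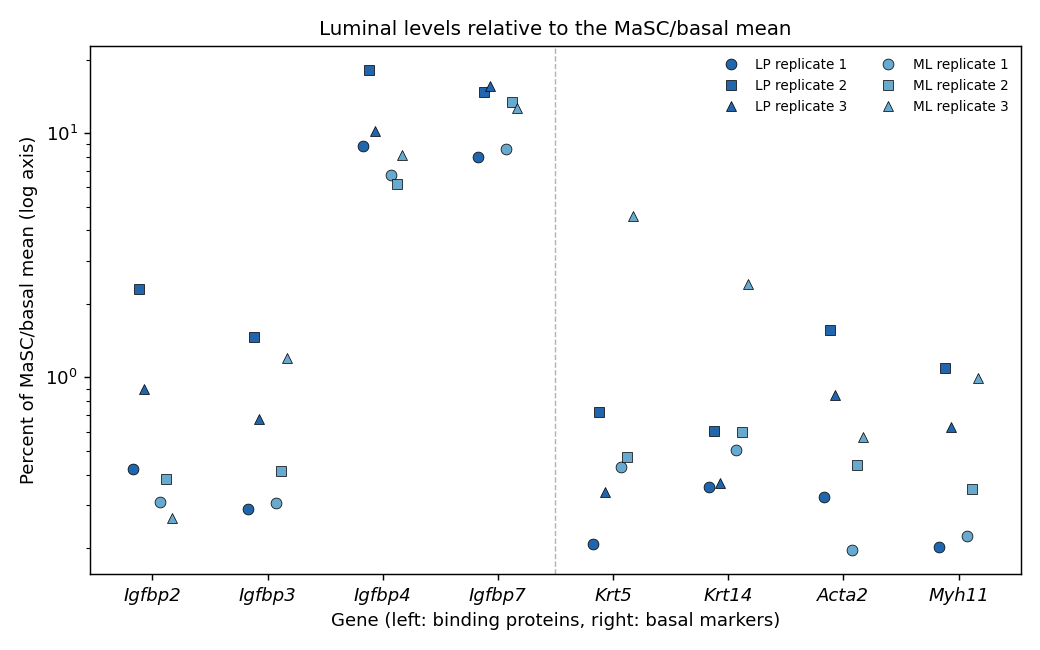
Level of 4 binding proteins (left) and 4 of the 5 basal markers (right, without *Trp63*) in each LP and ML library, as a percent of the MaSC/basal mean on a log axis. *Igfbp4* and *Igfbp7* lie between 6.17% and 18.2%, above every value of *Igfbp2*, *Igfbp3*, *Acta2* and *Myh11*.

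Markers of some stromal cells were also higher in MaSC/basal libraries, at low levels. The sum of 4 endothelial markers was 37.7 to 79.9 CPM across MaSC/basal, 6.84 to 19.5 CPM across LP and 4.75 to 32.8 CPM across ML libraries, and that of 3 pericyte markers was 29.7 to 45.0, 2.36 to 9.75 and 4.21 to 9.43 CPM. All markers of both lists had reads in each population. The sum of 4 adipocyte markers was at most 4.70 CPM. The sort was on lineage-negative cells, and its antibodies included CD31, an endothelial surface protein. How completely endothelial cells were removed is not given in the sources used here. The part of such cells in the levels of *Igfbp3*, *Igfbp4* and *Igfbp7* was not tested.

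*Igfbp5* and *Igfbp6*. *Igfbp5* (chromosome 1, 72858065 to 72874865) lies 5590 bases from *Igfbp2*, and the genes point towards each other. Unlike its neighbour, it was abundant in luminal cells, at 12571, 9053 and 8978 CPM in LP and 2045, 4013 and 1427 CPM in ML libraries, against 4434, 6343 and 6556 CPM in MaSC/basal libraries. It took 0.799% to 1.09% of all counted reads in LP libraries and ranked between 2 and 6 among all genes by reads. The populations did not overlap, in the order LP, MaSC/basal and ML.

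*Igfbp5* was higher in LP than in ML cells by 2.03 on the log2 scale (SE 0.37, adjusted p = 0.00369) and MaSC/basal exceeded ML as well (1.21, SE 0.37, adjusted p = 0.0161). The latter call was lost without MaSC/basal replicate 3 (adjusted p = 0.0510) or ML replicate 1 (adjusted p = 0.0681). The neighbours at the top of this order, LP and MaSC/basal, differed by -0.82 (MaSC/basal minus LP, SE 0.36, adjusted p = 0.0773). With library batch as a block this was -1.16 (adjusted p = 0.0151), and within the 2 shared batches the difference was -1.50 and -0.49. Fits without ML replicate 2 or 3 (adjusted p = 0.0194 and 0.0421) and the Wald test of DESeq2 (adjusted p = 0.0307) also called it. That Wald test made more false calls than edgeR in a simulation with far fewer changed genes.

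*Igfbp6* (chromosome 15, 102144186 to 102149512), which prefers IGF2 over IGF1, was low, at 7.31, 12.2 and 10.5 CPM across MaSC/basal, 9.94, 18.4 and 9.29 CPM across LP and 7.89, 2.29 and 3.28 CPM across ML libraries. MaSC/basal libraries overlapped with both luminal populations, while LP and ML did not overlap. The log2 fold change was -0.33 for MaSC/basal over LP (SE 0.43, adjusted p = 0.531), 1.17 for MaSC/basal over ML (SE 0.44, adjusted p = 0.0444) and 1.50 for LP over ML (SE 0.45, adjusted p = 0.0293). The MaSC/basal over ML call was lost with library batch as a block (0.99, adjusted p = 0.131) and without MaSC/basal replicate 2 or 3 or ML replicate 2 or 3 (adjusted p = 0.0979 to 0.124). The LP over ML call was lost without LP replicate 2 or ML replicate 2 or 3 (adjusted p = 0.0663 to 0.107). ML replicate 1 was the highest ML library, and without it these values were 1.87 and 2.21.

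Within library batches, the fold changes of the basal binding proteins kept their sign in batches 1 and 2. MaSC/basal exceeded LP by 5.37 to 7.96 for *Igfbp2*, 6.22 to 8.07 for *Igfbp3*, 2.28 to 3.80 for *Igfbp4* and 2.85 to 3.41 for *Igfbp7*. MaSC/basal exceeded ML by 7.92 to 8.39, 7.98 to 8.04, 3.83 to 4.19 and 3.00 to 3.31 for the same genes. *Igfbp6* did not hold for MaSC/basal against ML, with values from -0.11 to 2.29. In all 3 batches LP exceeded ML for *Igf1r* (0.60 to 1.89), *Igfbp2* (0.43 to 2.54), *Igfbp4* (0.33 to 1.55), *Igfbp5* (1.17 to 2.65) and *Igfbp6* (0.33 to 2.99).

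Per kilobase of exon, the scale on which transcripts of different genes can be set side by side, the make-up of the binding protein transcripts differed more than their sum between MaSC/basal and LP cells. The summed level of the 6 binding proteins was 1625, 2031 and 2124 CPM per kb in MaSC/basal, 2171, 1601 and 1568 CPM per kb in LP and 370.2, 707 and 269.8 CPM per kb in ML libraries. *Igfbp5* supplied 46.6% to 53.4% of it in MaSC/basal libraries, 96.6% to 98.9% in those of LP and 90.4% to 97.0% in those of ML. In MaSC/basal libraries *Igfbp3* supplied 22.2% to 27.0% and *Igfbp2* 12.7% to 20.5%, whereas each gave at most 2.06% in a luminal library. By mean level per kb, *Igfbp5* ranked 32 among all genes in MaSC/basal cells, 24 in LP cells and 110 in ML cells, and *Igfbp3* ranked 95 in MaSC/basal and 10064 in ML cells. The receptor stood at 20.4 CPM per kb in MaSC/basal cells, 12.4 in LP cells and 5.06 in ML cells, while *Igf1* and *Igf2* were between 0.180 and 1.03 CPM per kb in these populations.

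**Figure D4:**
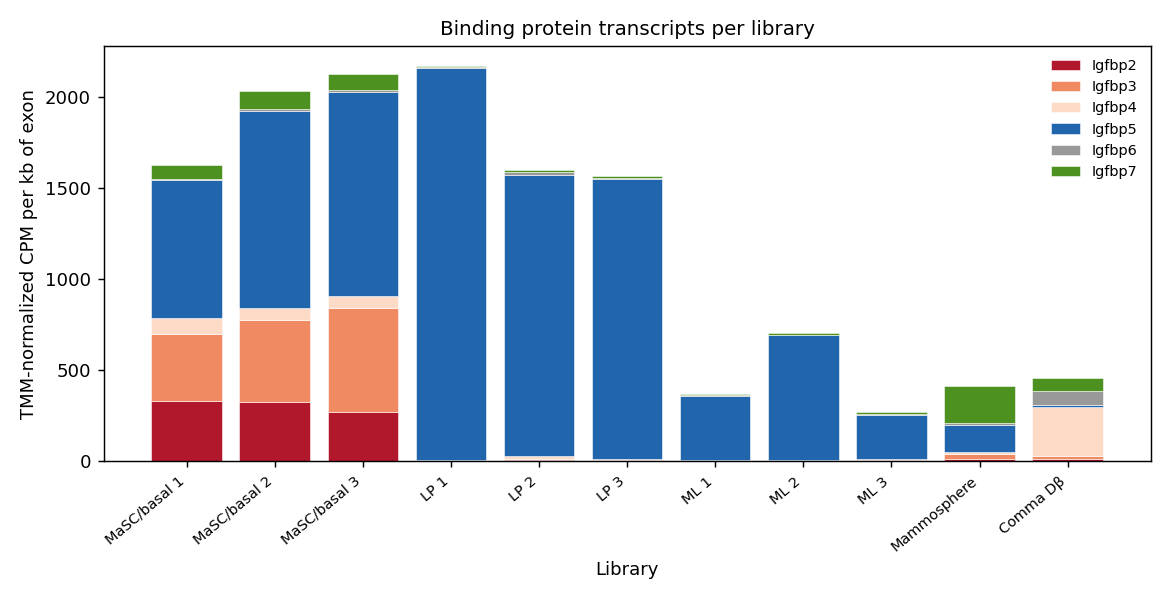
Stacked level of the 6 binding protein transcripts in TMM-normalized CPM per kb of exon, 1 bar per library. *Igfbp5* fills 46.6% to 53.4% of the MaSC/basal bars and at least 90.4% of the luminal bars, *Igfbp7* forms 49.5% of the mammosphere bar and *Igfbp4* 59.2% of the Comma Dβ bar.

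Cultured cells. The mammosphere and Comma Dβ libraries were set beside the mean of the 3 MaSC/basal libraries as a description, since 1 library each allows no test, and their exact 95% Poisson intervals cover counting error only. The mammosphere library shares its batch with MaSC/basal replicate 1 alone, and Comma Dβ shares its batch with no MaSC/basal library, so that batch and cell type cannot be told apart there. In mammosphere cells *Igfbp2* was at 14.8 CPM (13.7 to 16.0), 27.7-fold lower than the MaSC/basal mean, and *Igfbp3* was at 78.5 CPM (76.0 to 81.2), 14.4-fold lower. *Igfbp4* at 22.1 CPM and *Igfbp5* at 854 CPM were 6.80-fold and 6.77-fold lower. *Igfbp7* went the other way, at 248 CPM (244 to 253), which was 2.35-fold above the MaSC/basal mean and above all 9 sorted libraries. The 6 binding proteins together stood at 414 CPM per kb, below each MaSC/basal library. In the same mammosphere library the 5 basal markers summed to 3354 CPM, against 15222 to 20988 CPM in MaSC/basal libraries. The 5 luminal markers summed to 3151 CPM, against 1401 to 1691 CPM in MaSC/basal libraries. The part of this marker shift in the binding protein values was not tested.

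*Igf2* was at 23.0 CPM (21.6 to 24.4, 1022 reads) in mammosphere cells, above the highest sorted library (5.88 CPM). *H19*, its imprinted neighbour, was at 116 CPM there and at 0.917 to 9.83 CPM in the sorted libraries, a gene picked out after its values were seen. *Igf1r* was near the MaSC/basal level at 213 CPM (log2 ratio -0.20, which became 0.03 with library totals in place of TMM), *Irs1* was at 93.9 CPM and *Igf1* at 6.27 CPM. The fibroblast markers summed to 2402 CPM and the pericyte markers to 206 CPM in this library, above all sorted libraries, with all markers of both lists detected. The part of such cells in these values was not tested.

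In Comma Dβ cells *Igfbp5* was at 62.3 CPM (59.5 to 65.2), 92.8-fold below the MaSC/basal mean and below every sorted library. *Igfbp2* at 20.6 CPM and *Igfbp3* at 36.3 CPM were 19.9-fold and 31.3-fold lower than in MaSC/basal cells. *Igfbp4*, in contrast, reached 558 CPM (549.8 to 567), 3.71-fold above the MaSC/basal mean, and *Igfbp6* reached 99.5 CPM (95.9 to 103), 9.93-fold above it. Both exceeded every sorted library. *Igfbp7* was at 81.9 CPM, 1.29-fold below the MaSC/basal mean. *Igf2* was counted in 8 reads (0.272 CPM, 0.117 to 0.536), and *Igf1* was at 8.33 CPM, *Igf1r* at 158 CPM and *Irs1* at 55.8 CPM.

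Other genes of the pathway. Of a list of 51 further genes, 47 passed the filter on low counts. Between MaSC/basal and LP cells 11 (23.4%) were higher in MaSC/basal and 16 (34.0%) in LP cells, against 29.4% and 28.0% of all genes tested. Between MaSC/basal and ML cells 16 (34.0%) were higher in MaSC/basal and 14 (29.8%) in ML cells, against 28.9% and 29.7% of all genes. These shares were near those of all genes, and the median log2 fold change of the list was 0.02 in both comparisons. Between LP and ML cells 11 (23.4%) were higher in LP and 8 (17.0%) in ML cells, against 14.3% and 17.5% of all genes, with a median of 0.22. *Igfbp1*, the liver binding protein, failed the filter, with 16 reads over all libraries.

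Enzymes that act on binding proteins, and the inhibitors of these enzymes, were among the genes of the list with the largest fold changes. *Pappa* (pappalysin, which cuts IGFBP4) was at 366, 298 and 390.0 CPM across MaSC/basal, 1.59, 10.3 and 4.80 CPM across LP and 6.11, 6.71 and 2.69 CPM across ML libraries. All MaSC/basal libraries were thus above all luminal libraries. Its log2 fold change was 5.94 over LP (SE 0.62, adjusted p = 2.28e-05) and 6.06 over ML (SE 0.62, adjusted p = 1.80e-05). The protease genes *Pappa2*, *Htra1* and *Adamts1* were likewise higher in MaSC/basal cells, by 3.95, 3.55 and 4.02 over LP and by 3.51, 4.48 and 4.40 over ML.

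The stanniocalcins *Stc1* and *Stc2*, secreted inhibitors of pappalysins, were the 2 genes of this group of 6 that were lower in MaSC/basal cells. *Stc2* was at 10.4, 11.5 and 5.40 CPM across MaSC/basal, 91.4, 161 and 251 CPM across LP and 1140, 862 and 1263 CPM across ML libraries. The 3 populations did not overlap and rose in this order, with a log2 fold change of -4.21 for MaSC/basal over LP (SE 0.42), -6.90 for MaSC/basal over ML (SE 0.47) and -2.70 for LP over ML (SE 0.39, adjusted p = 0.00131). *Stc1* was instead highest in LP cells (30.4 ± 9.02 CPM, SD, n = 3), against 10.3 ± 5.86 CPM in ML and 3.91 ± 1.29 CPM in MaSC/basal cells, and passed the test in all 3 comparisons.

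**Figure D5:**
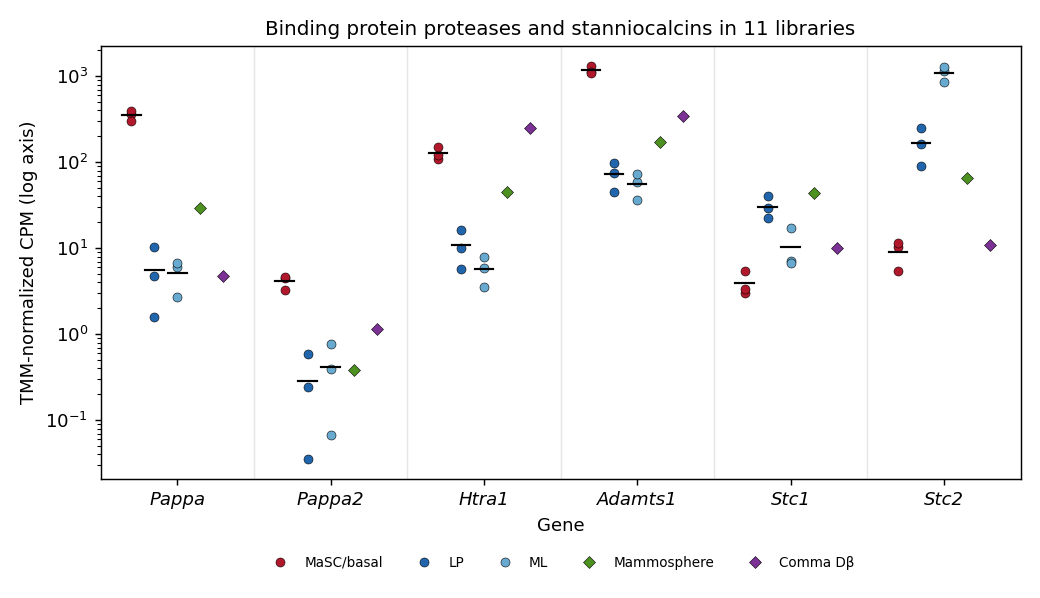
TMM-normalized CPM (log axis) of 4 protease genes and both stanniocalcins in each of the 11 libraries, with a bar at the mean of a sorted population. The proteases are highest among sorted cells in MaSC/basal libraries (*Pappa* 298 to 390.0 CPM), and *Stc2* rises from 5.40 to 11.5 CPM in MaSC/basal to 862 to 1263 CPM in ML libraries.

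The receptors *Igf2r* and *Insr* were higher in both luminal populations. *Igf2r*, which clears IGF2, averaged 156 ± 8.70 CPM across MaSC/basal, 195 ± 8.04 CPM across LP and 273 ± 23.1 CPM across ML cells (SD, n = 3), with log2 fold changes of -0.33 (adjusted p = 0.0414) and -0.81 (adjusted p = 0.000259) for MaSC/basal over LP and ML. The insulin receptor *Insr* showed -0.42 (adjusted p = 0.0105) and -0.48 (adjusted p = 0.00475). *Igfals*, the partner of IGFBP3 in serum complexes, was at 1.05 to 1.30 CPM across MaSC/basal, 14.6 to 39.1 CPM across LP and 5.88 to 20.4 CPM across ML libraries, so that gene and partner ran in opposite directions. Its log2 fold change was -4.45 (SE 0.51, adjusted p = 4.14e-05) against LP and -3.47 (SE 0.49, adjusted p = 0.000159) against ML.

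Among adaptors, *Grb10*, an inhibitor of insulin and IGF1 receptors, was lower in MaSC/basal cells (4.99 to 8.08 CPM) than in LP (45.0 to 52.1 CPM) and ML cells (21.2 to 33.6 CPM), with log2 fold changes of -2.91 and -2.14. *Irs2*, the relative of *Irs1*, was higher in LP than in ML cells (log2 difference 1.56, SE 0.48, adjusted p = 0.0313), with LP values of 644, 158 and 242 CPM and ML values of 171, 94.2 and 87.5 CPM that overlapped. *Ghr*, the growth hormone receptor, was higher in MaSC/basal and LP than in ML cells, by 0.46 (adjusted p = 0.0219) and 0.44 (adjusted p = 0.0472), and its difference between MaSC/basal and LP cells was 0.02 (95% interval -0.31 to 0.35). *Igf2bp2*, which binds *Igf2* mRNA, was higher in ML than in LP cells (12.3 to 19.2 against 3.17 to 6.09 CPM).

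The genes whose log2 CPM over the 11 libraries was most like that of an IGF axis gene were contractile genes for *Igfbp3*, namely *Myl9* (Pearson r = 0.995) and *Mylk* (0.993). The 2 closest were *Ank2* and *Adgrb2* (both 0.993) for *Igfbp2*, *Bora* (0.983) and *Scrn1* (0.978) for *Igfbp4*, *Tmem185b* (0.997) and *C4b* (0.988) for *Igfbp5*, *Ddr2* (0.955) and *Pcolce2* (0.932) for *Igfbp6* and *Mamdc2* (0.985) and *Plod2* (0.979) for *Igfbp7*. For *Igf1r* they were *Wtip* (0.979) and *Dock4* (0.964), for *Irs1* *Atg7* (0.939) and *Nfkbil1* (0.934), and for *Igf2* *Sparcl1* (0.921) and *Xrcc4* (0.918). These values describe 11 libraries that share populations and batches. They were taken as the highest among those of the 15422 genes tested that have a symbol. Over the 9 sorted libraries alone some were lower, such as 0.939 for *Igfbp5* with *C4b* and 0.880 for *Igfbp6* with *Pcolce2*. Others were higher, such as 0.998 for *Igfbp3* with *Myl9*.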

How the data were processed

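RNA-seq data of 11 libraries were used, grouped by their labels. The authors used Rsubread to align single-end reads to mm10 (GRCm38) and featureCounts to assign them to genes, and deposited raw, unfiltered counts of 27179 Entrez genes for each library. Whether counting used strand is not given in the sources used here. Gene symbols (25275 genes), coordinates and promoter windows were taken from RefSeq (GRCm38.p6).

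The deposited counts were tested in edgeR 4.0.16 (R 4.3.3). After a filter that kept the 15422 genes over 0.5 CPM in 3 or more libraries, TMM scaling was applied. All 11 libraries entered 1 quasi-likelihood fit with 5 sample type means and Benjamini-Hochberg adjustment over all genes tested. SE is the size of the log2 fold change divided by the square root of the F statistic. CPM are TMM-normalized over all counted reads, CPM per kb used the deposited exon lengths, and likeness used log2 CPM with a prior count of 2. Poisson intervals and the 3-read limit cover counting error only. Alternatives were DESeq2 size factors, upper quartile factors, library totals, DESeq2's Wald test (version 1.42.0), limma voom (version 3.58.1), no filter or a stricter filter on counts, a fit to only the 9 sorted libraries, a replicate block for library batch and leaving out each sorted replicate in turn.

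Pairing comes from the library batch in the labels. Deviations from the population means correlated at -0.12 to 0.53 over 9 pairs of libraries from the same batch and at -0.42 to 0.11 over 18 pairs from different batches. No 2 libraries of a population agreed within sampling noise (chi-square per gene of at least 50.9). In a simulation of 15044 genes, 200 of them shifted by 3 on the log2 scale, edgeR found 199 for MaSC/basal against LP and made 5 false calls, whereas DESeq2's Wald test found 199 and made 62. In the data 57.4% of all genes tested were called in this comparison, so these false calls need not carry over to it.

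The IGF axis genes, the pathway list and the marker lists were chosen with earlier results of these data known. Genes named in the text were all 10 IGF axis genes, 12 fixed pathway genes, the 2 called pathway genes with the largest log2 fold change in each direction of each comparison, the 2 genes most like each IGF axis gene (those for *Igf1* are not reported here), and markers. Proteins and other assays of the study were not analysed here.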

Additional observations from a re-analysis of the deposited data

How the results depend on the processing

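Of 540 fold changes of IGF axis genes (10 genes in 3 comparisons under 18 alternative fits), 491 kept their direction and their side of FDR 0.05, 23 lost the call, 18 gained it and 8 changed sign. *Igfbp2*, *Igfbp3*, *Igfbp4* and *Igfbp7* kept their call against both LP and ML under all 18, higher in MaSC/basal. Sign changes touched only differences that had not passed the test. Over fits that each left out 1 sorted replicate, log2 values spanned -0.68 to 0.052 for *Igf1* (MaSC/basal over ML), -0.51 to 0.042 for *Igfbp6* (MaSC/basal over LP), -0.17 to 0.63 for *Igf1* (LP over ML), -0.37 to 1.18 for *Igfbp3* (LP over ML) and -0.030 to 0.41 for *Igfbp7* (LP over ML). Library totals in place of TMM gave -0.022 for *Igfbp7* (LP over ML) and 0.032 for the mammosphere log2 ratio of *Igf1r*, and moved the median of all genes tested to 0.14 (MaSC/basal over LP) and -0.19 (LP over ML). The number of IGF axis genes called between LP and ML cells ranged from 3 to 6 over the left-out replicates (3 without LP replicate 2 or any 1 of the ML replicates), and that of pathway genes from 12 to 20 (12 without ML replicate 1), while 20.1% (without ML replicate 1) to 34.3% of all genes were called. The causes were not tested. With library batch as a replicate block, 7, 7 and 4 IGF axis genes were called in MaSC/basal against LP, MaSC/basal against ML and LP against ML, and 28, 35 and 23 pathway genes, where 58.4%, 58.9% and 36.6% of all genes were called (57.4%, 58.7% and 31.8% without the block), and beyond the calls given beside *Igf2*, *Igfbp4*, *Igfbp5* and *Igfbp6* no call of an IGF axis gene changed. Among differences called in neither fit, the block moved those of *Igf1* (MaSC/basal over ML -0.18 to -0.37, LP over ML 0.27 to 0.16), *Igf1r* (MaSC/basal over LP 0.72 to 0.44), *Irs1* (MaSC/basal over ML -0.64 to -0.39) and *Igfbp6* (MaSC/basal over LP -0.33 to -0.51) by over 1.5 times. Counts were lowest for *Igf2*, at 1 read in LP replicate 1 and 8 reads in ML replicate 1.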
